A study of Homo sapiens with 12 samples.

Results

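Box H/ACA small nucleolar RNAs (snoRNAs) and small Cajal body RNAs (scaRNAs) were examined here as every gene whose name starts with SNORA or SCARNA and that had at least 100 counts summed over the 12 libraries of the series. Of 171 such names in a table of 60583 genes, 35 met the count and 69 had no count in any library. The members were 27 snoRNAs and 8 scaRNAs, of 125 to 353 annotated bases. The members were chosen by their summed count, so their levels are given as a description. At the limit, SNORA40B had 109 counts and SNORA66 102, while SNORA19 with 99 and SNORA3B with 97 were left out. RNA came from wild-type cardiomyocytes derived from RUES2, an established human embryonic stem cell line, kept in RPMI with B27 and insulin. From day 50 the cells spent 3 days on an electrospun scaffold. In the control group, called PVA, the scaffold was 8% polyvinyl alcohol, which does not conduct. In the other group, called PEDOT, it was the conductive 9.75% PEDOT:PSS/PVA. Each scaffold had 3 biological replicates with 2 technical libraries each, and counts of both libraries were added to give 6 sums. The labels do not say that biological replicates were separate differentiations, or what separates technical libraries, so the p-values cover only how far these samples spread.

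An H/ACA RNA pairs with a target RNA and directs the dyskerin complex (DKC1, NHP2, NOP10 and GAR1) to turn a chosen uridine into pseudouridine. The snoRNAs act on ribosomal RNA in the nucleolus, and the scaRNAs act on spliceosomal snRNAs in Cajal bodies. Box C/D RNAs form the other class, which directs ribose methylation with fibrillarin, and a few scaRNAs join both kinds of box in one molecule. Most of these RNAs in human cells are cut out of introns of host genes. Ribodepleted total RNA, as sequenced here, keeps such transcripts, which have no poly(A) tail.

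The sequences below belong to the members on which the results turn, read 5′ to 3′ from GENCODE 29 transcripts that lie at the coordinates of the deposited table on hg38. Capitals mark the last ACA within the last 6 bases, read as the terminal ACA box, and, in scaRNAs, any TGATGA, the core sequence of a C box. In SNORA23 ACA repeats with overlap there, and the mark, with 1 base after it, may not be the box itself. The TGATGA mark is a string match at any position and does not by itself make a C box, as in SCARNA4, which ends in ACA. The first set holds 6 of the 7 members that were higher in replicate 2 of both scaffolds.
SCARNA5: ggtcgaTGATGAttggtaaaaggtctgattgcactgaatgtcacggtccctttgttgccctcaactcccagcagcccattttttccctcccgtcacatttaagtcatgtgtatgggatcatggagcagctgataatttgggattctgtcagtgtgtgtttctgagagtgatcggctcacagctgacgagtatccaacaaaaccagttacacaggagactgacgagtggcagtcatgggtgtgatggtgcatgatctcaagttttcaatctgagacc
SCARNA6: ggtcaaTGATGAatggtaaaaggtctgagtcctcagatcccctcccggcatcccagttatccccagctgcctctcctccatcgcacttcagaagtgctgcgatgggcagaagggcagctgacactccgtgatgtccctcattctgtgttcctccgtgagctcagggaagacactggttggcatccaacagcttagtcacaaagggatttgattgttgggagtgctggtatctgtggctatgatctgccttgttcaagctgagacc
SNORA53: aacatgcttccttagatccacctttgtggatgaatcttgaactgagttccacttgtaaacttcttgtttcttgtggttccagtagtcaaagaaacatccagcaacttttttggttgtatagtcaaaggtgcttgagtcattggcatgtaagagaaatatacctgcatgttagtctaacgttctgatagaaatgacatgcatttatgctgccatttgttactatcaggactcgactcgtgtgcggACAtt
SNORA74B: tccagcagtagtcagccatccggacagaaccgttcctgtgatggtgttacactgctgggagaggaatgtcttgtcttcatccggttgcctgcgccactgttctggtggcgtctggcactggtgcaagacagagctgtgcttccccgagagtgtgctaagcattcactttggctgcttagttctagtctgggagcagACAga
SNORA73B: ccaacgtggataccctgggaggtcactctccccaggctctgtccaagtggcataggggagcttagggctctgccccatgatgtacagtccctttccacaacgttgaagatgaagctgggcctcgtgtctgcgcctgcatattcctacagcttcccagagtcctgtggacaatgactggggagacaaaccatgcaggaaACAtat
SNORA23: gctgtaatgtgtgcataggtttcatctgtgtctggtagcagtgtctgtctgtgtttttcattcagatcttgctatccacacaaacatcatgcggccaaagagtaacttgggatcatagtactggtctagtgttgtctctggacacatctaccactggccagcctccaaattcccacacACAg

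The second set holds SCARNA21, which was lower in replicate 2 than in replicate 1, and SNORA12 and SCARNA4, whose scaffold groups did not overlap.
SCARNA21: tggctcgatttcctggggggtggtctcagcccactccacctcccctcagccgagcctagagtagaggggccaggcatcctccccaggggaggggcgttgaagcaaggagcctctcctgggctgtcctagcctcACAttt
SNORA12: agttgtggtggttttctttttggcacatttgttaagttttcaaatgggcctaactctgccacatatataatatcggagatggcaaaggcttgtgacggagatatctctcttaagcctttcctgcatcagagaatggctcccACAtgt
SCARNA4: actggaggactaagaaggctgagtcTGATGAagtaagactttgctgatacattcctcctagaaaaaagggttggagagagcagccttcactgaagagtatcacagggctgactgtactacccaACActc
The longest members, SCARNA7 of 330 bases and SCARNA9 of 353 bases, did not follow the first set and are shown by their first and last 45 bases.
SCARNA7 start: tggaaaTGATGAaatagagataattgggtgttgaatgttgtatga
SCARNA7 end: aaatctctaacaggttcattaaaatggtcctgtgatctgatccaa
SCARNA9 start: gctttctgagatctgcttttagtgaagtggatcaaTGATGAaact
SCARNA9 end: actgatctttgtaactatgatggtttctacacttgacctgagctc

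The sequences divide the members, and for 4 scaRNAs they do not match a plain H/ACA label. Of the 26 member snoRNAs whose sequence was read, 22 (84.6%) carried ACA in the last 6 bases, against 133 of all 149 SNORA transcripts in GENCODE 29 (89.3%) and 13 of 288 SNORD transcripts (4.51%). SNORA71B, SNORA74D, SNORA16B and SNORA40B had no such ACA. Among the 8 scaRNAs, SCARNA21, SCARNA4, SCARNA3 and SCARNA1 ended in the box, while SCARNA5, SCARNA6, SCARNA7 and SCARNA9 did not. Those 4 held TGATGA, which SCARNA9 has at 2 places. TGATGA occurred anywhere on the RNA strand in 5 of 8 member scaRNAs, in 1 of 26 member snoRNAs, in 3.36% of all SNORA transcripts and in 77.4% of SNORD transcripts. SCARNA5 and SCARNA6, as background, are composite guides of both classes for U5 snRNA, and SCARNA7 and SCARNA9 are C/D scaRNAs for U1 and U2 snRNA. These 4 scaRNAs took 24010 of 42893 member counts (56.0%).

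SCARNA5 and SCARNA6 stood out by level and by position. SCARNA5 lies at chr2:233275727-233276002 and SCARNA6 at chr2:233288676-233288940, both on the plus strand in introns of ATG16L1, an autophagy gene, with 12673 bases between them. They were 62.7% identical by edit distance, matched at 26 of their first 28 bases and shared the last 8. SNORA53 lies at chr12:98599635-98599883 in SLC25A3, the mitochondrial phosphate carrier. It shares 26 bases with annotated exons on its strand, of its host or of another gene. SNORA74B lies at chr5:173020728-173020928 in ATP6V0E1, SNORA73B at chr1:28508559-28508762 in SNHG3 and RCC1, and SNORA23 at chr11:9428773-9428954 in IPO7. SCARNA21 lies at chr17:7906122-7906260 in CHD3, SCARNA7 on the minus strand at chr3:160514907-160515236 in KPNA4, SCARNA9 at chr11:93721513-93721865 in CEP295 and SNORA12 on the minus strand at chr10:100237156-100237302 in CWF19L1. In all, 34 members lay inside 30 different same-strand hosts, and SNORA11F had none. SCARNA9 likewise shares 149 bases with annotated exons on its strand, of its host or of another gene. The counting command sets no option to count reads that overlap several genes, so reads on such shared bases may be missing from both members. Read pairs from an unspliced host intron that cross a member are counted to the member, and this share was not measured.

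Level was concentrated in few members. Levels are in CPM, counts scaled to 1000000 per library with the trimmed mean of M-values. SCARNA5 alone took 41.7% of the member counts, the top 3 took 70.3% and the top 10 took 90.0%. The mean level of a member ran from 0.348 to 60.7 CPM with a median of 0.569, and 13 members reached 1 CPM and 5 reached 5 CPM. Per kilobase of annotated length, SCARNA5 was at 220 CPM, SNORA53 at 114, SCARNA21 at 59.1, SCARNA6 at 50.7, SNORA74A at 28.9 and SNORA73B at 20.7. The median member was at 4.31 CPM per kilobase and the lowest, SNORA74C-1, at 2.01.

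Long RNAs carried most of the signal. Of 18 SNORA and SCARNA names with 180 or more bases, 11 were members with 85.1% of the member counts, whereas 148 names under 150 bases gave 23 members with 14.7%. Whether fragment size selection takes part in this was not tested, since no file gives fragment lengths. SNORA73A was listed at 0 in every library, although SNORA73B, 93.2% identical to it, had 1241 counts. The counting command sets no option to count reads that match several places. Such reads may be missing, so levels of near-identical copies are uncertain and may be too low. SNORA74C-1 was 98.0% identical to SNORA74C-2, SNORA40B 96.9% to SNORA40 and SNORA74B 90.0% to SNORA74C-2. SCARNA5, SNORA53, SCARNA6 and SNORA74A had no match above 66.2% among the other annotated SNORA and SCARNA transcripts. Copies under other names or elsewhere in the genome were not searched.

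The 12 libraries had 19117192 to 30954829 counts each. The 6 sums had 44487633 to 57493893, of which 5045 to 10192 fell on the members. All 35 members had a count in each of the 12 libraries and passed the filter on low counts, which left 21298 genes. The 10 cardiomyocyte markers (TNNT2, MYH6 and others) were all detected and summed to 56183 to 85972 CPM, and the 6 pluripotency markers to 0.192 to 0.689 CPM.

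**Figure D1:**
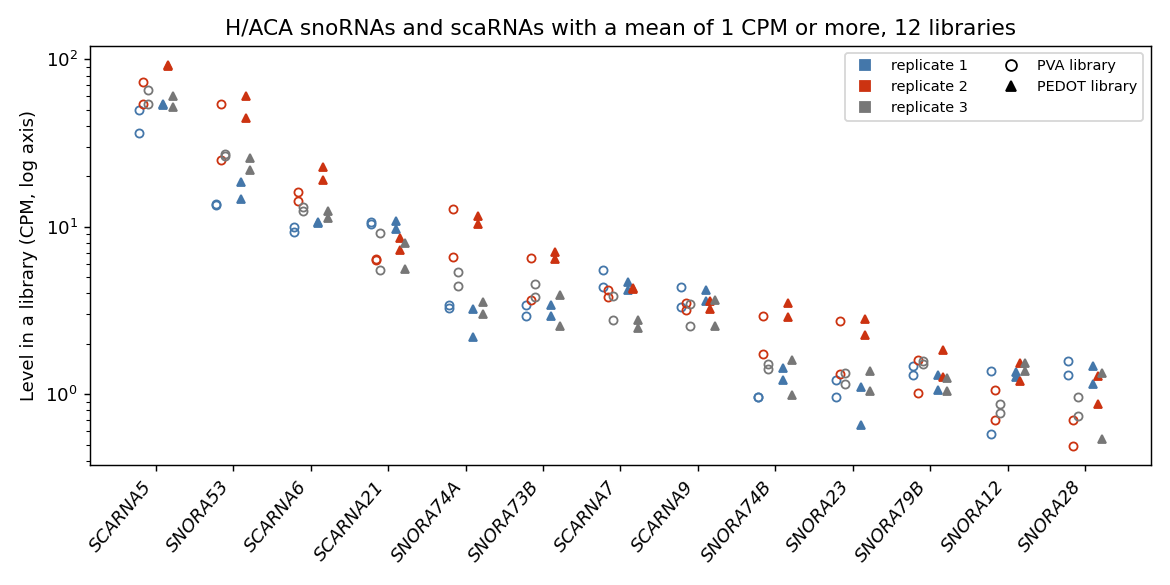
Level of the 13 members with a mean of 1 CPM or more in each of the 12 libraries, on a log axis in CPM; open circles are PVA libraries, filled triangles PEDOT libraries, and colours give the replicate number. In SNORA74A the replicate 2 libraries lie at 6.57 to 12.8 CPM and the other 8 at 2.19 to 5.35 CPM, while in SCARNA9 both sets lie between 2.54 and 4.35 CPM.

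The largest differences among the members followed the replicate number, not the scaffold. SNORA53, SNORA74A, SNORA74B, SNORA23, SNORA73B, SCARNA6 and SCARNA5 were all higher in replicate 2 than in replicates 1 and 3, on both scaffolds. SCARNA21 was lower in replicates 2 and 3 than in replicate 1. Replicate number was tested in edgeR with the scaffold as a second term, which leaves 2 residual degrees of freedom a gene beside the spread shared across genes. In the F test over the 3 numbers, 9 of 35 members had an adjusted p under 0.05, a share of 25.7% beside 31.8% of all genes tested. Among genes with a mean of 1 CPM or more, the shares were 9 of 13 members and 38.6% of genes, and 7 of the 13 were higher in replicate 2 than in 1, beside 16.8% of genes. None of the 22 members under 1 CPM was called, and the difference between these shares was not tested.

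SNORA53, an H/ACA snoRNA with no assigned target in common catalogues, was at 13.5 CPM in PVA replicate 1, 37.7 in PVA replicate 2 and 26.7 in PVA replicate 3. On PEDOT it was at 16.3, 52.6 and 23.7 CPM. Replicate 2 was the highest sum on each scaffold and replicate 1 the lowest. The level was 3.01 times as high in replicate 2 as in replicate 1 (log2 fold change 1.59, SE 0.13, adjusted p = 4.48e-07, edgeR quasi-likelihood), and 1.77 times as high as in replicate 3 (adjusted p = 3.65e-04). It was the one member also higher in replicate 3 than in replicate 1 (log2 0.77, SE 0.13, adjusted p = 0.00118).

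SNORA74A, a guide for the large-subunit ribosomal RNA, was at 3.29, 9.31 and 4.87 CPM in PVA replicates 1, 2 and 3. On PEDOT it was at 2.64, 10.9 and 3.28 CPM. Its 4 libraries of replicate 2, at 6.57 to 12.8 CPM, all lay above the other 8, at 2.19 to 5.35 CPM. The log2 fold change of replicate 2 against 1 was 1.79 (SE 0.19, adjusted p = 6.97e-06), the largest among the members, and that against replicate 3 was 1.33 (adjusted p = 1.79e-04). SNORA74B, which is 66.2% identical to it and sits in another host, was at 0.953, 2.26 and 1.47 CPM on PVA, and on PEDOT at 1.30, 3.19 and 1.30 CPM. Its difference of replicate 2 from 1 was 1.26 (SE 0.26, adjusted p = 0.00198). SNORA74D, in the same host as SNORA74A, was between 0.394 and 0.631 CPM in the 6 sums, with a log2 fold change of 0.13 (SE 0.38, adjusted p = 0.836).

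SNORA73B, the U17 snoRNA that serves cleavage of the ribosomal RNA precursor and not pseudouridylation, was at 3.12, 4.94 and 4.21 CPM on PVA, and on PEDOT at 3.17, 6.70 and 3.21 CPM. SNORA23, a guide for the large-subunit ribosomal RNA, was at 1.06, 1.94 and 1.25 CPM on PVA, and on PEDOT at 0.899, 2.54 and 1.21 CPM. In both, the 2 sums of replicate 2 lay above the other 4. The log2 fold change of replicate 2 against 1 was 0.88 for SNORA73B (SE 0.20, adjusted p = 0.00441) and 1.19 for SNORA23 (SE 0.27, adjusted p = 0.00393).

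SCARNA5 was at 41.8, 62.6 and 59.5 CPM in PVA replicates 1, 2 and 3 and at 53.2, 91.3 and 55.8 CPM in those of PEDOT. SCARNA6 was at 9.53, 15.1 and 12.8 CPM and at 10.6, 20.7 and 11.9 CPM. Within PVA the step from replicate 3 to 2 was small, at 0.07 (log2) for SCARNA5 and 0.25 for SCARNA6, and within PEDOT it was 0.71 and 0.80. Against replicate 1 the fits gave 0.69 for SCARNA5 (SE 0.12, adjusted p = 4.46e-04) and 0.83 for SCARNA6 (SE 0.13, adjusted p = 2.94e-04). Both composite scaRNAs moved in the same direction, and SCARNA6 had its 4 replicate 2 libraries, at 14.2 to 22.6 CPM, above the other 8, at 9.32 to 13.1 CPM.

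SCARNA21, SCARNA7 and SCARNA9 did not show that order. SCARNA21, an H/ACA guide for U12 snRNA, was at 10.5, 6.42 and 7.5 CPM on PVA, and on PEDOT at 10.2, 7.88 and 6.77 CPM, with replicate 1 the highest on each scaffold. It fell by 0.53 (log2) from replicate 1 to replicate 2 (SE 0.14, adjusted p = 0.0118) and by 0.53 to replicate 3 (adjusted p = 0.0232). SCARNA7 was at 4.83, 4.00 and 3.37 CPM on PVA, and on PEDOT at 4.39, 4.24 and 2.64 CPM, and it was lower in replicate 3 than in 1 (log2 -0.62, SE 0.18, adjusted p = 0.0392), whereas replicate 2 against 1 gave -0.16 (SE 0.18, adjusted p = 0.570). SCARNA9 was at 3.72, 3.39 and 3.03 CPM on PVA, and on PEDOT at 3.91, 3.40 and 3.09 CPM, with -0.17 for replicate 2 against 1 (SE 0.18, adjusted p = 0.538). Of the members at 1 CPM or more, SCARNA9, SNORA79B and SNORA12 had the largest p in the F test.

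Against replicate 1, replicate 2 had 7 members called higher (beside 13.3% of all genes) and 1 lower (beside 15.7%). Against replicate 3 the same 7 were higher (beside 7.57%) and none was lower (all genes 11.9%). Replicate 3 against 1 gave 1 member higher (beside 6.79%) and 2 lower (beside 6.42%). In 8 members both replicate 2 sums lay above the other 4 (22.9%, beside 19.1% of all genes), the 8th being SCARNA1, and in SNORA37 both lay below (2.86%, beside 19.9%). The median log2 fold change of the 35 members, replicate 2 minus 1, was -0.03, beside -0.00 over all genes. It was 0.69 over the 13 members at 1 CPM or more, of which 9 were above 0, and -0.21 over the 22 below 1 CPM, of which 6 were.

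The 7 members that rose in replicate 2 all had 180 or more bases. Among members at 1 CPM or more, 7 of 9 with 180 or more bases were called higher and 0 of 4 shorter ones, with medians of 0.88 and -0.25 (log2) for replicate 2 minus 1. SCARNA7 and SCARNA9 were the long exceptions. Below 1 CPM no member was called in either length class, and the median SE of the 20 short ones was 0.45, so a difference of the size seen in SCARNA5 was not detectable there. The share by length was not tested as such, since the members were grouped after their values were seen.

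**Figure D2:**
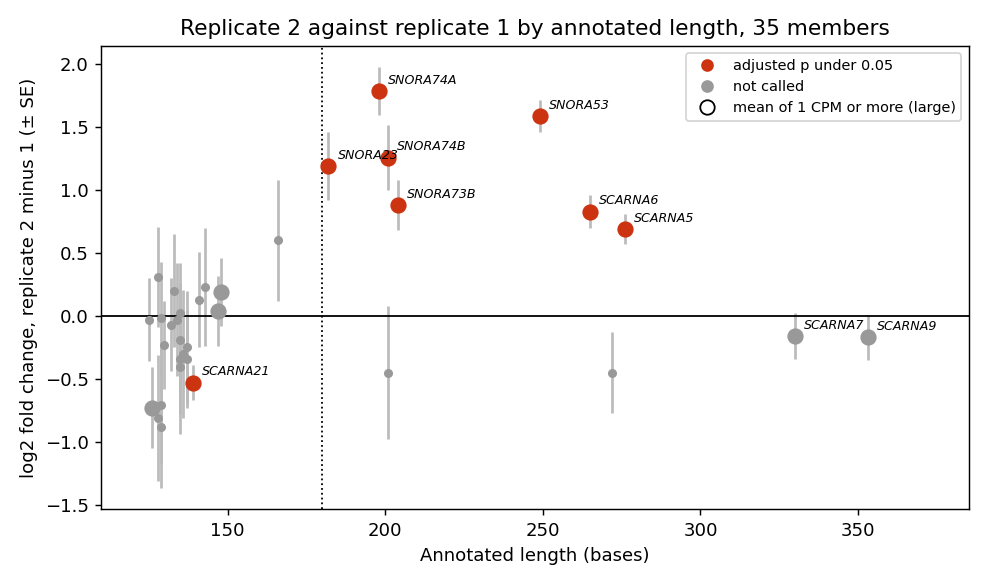
Difference of replicate 2 from replicate 1 (log2 fold change ± SE, edgeR with scaffold as a term) against annotated length in bases for the 35 members; large points have a mean of 1 CPM or more, red points an adjusted p under 0.05, and the dotted line marks 180 bases. Of the 8 called members, 7 lie above 0 at 182 to 276 bases, and SCARNA21 lies below 0 at 139 bases.

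Which members were called depended on single sums and libraries. The share of all genes called in these reduced runs is not given beside the counts. A loss of calls over all genes can therefore not be told from one particular to the members. Without PEDOT replicate 2 the F test called 5 members, and replicate 2 against 1 gave 0.56 for SNORA73B (adjusted p = 0.124) and 0.92 for SNORA23 (adjusted p = 0.0656). SNORA23 also lost its call without PEDOT replicate 1 (adjusted p = 0.0521), SCARNA21 without PVA replicate 2 (adjusted p = 0.244), and SCARNA21 with the lower-numbered libraries alone (adjusted p = 0.125). The higher-numbered technical libraries alone gave 5 calls in the F test and left SCARNA5 (0.47, adjusted p = 0.0915), SNORA73B (0.57, adjusted p = 0.204) and SNORA23 (0.63, adjusted p = 0.252) uncalled against replicate 1. SNORA53, SNORA74A, SNORA74B and SCARNA6 stayed called higher in replicate 2 than in 1 under each alternative run.

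The library that stood apart was PVA replicate 2, library 2. SNORA53 was at 53.8 CPM in it and at 25.1 in library 3 of the same replicate, SNORA74A at 12.8 and 6.57, SNORA23 at 2.72 and 1.32, SNORA73B at 6.54 and 3.66, and SNORA74B at 2.92 and 1.74 CPM. SCARNA5 was at 73.1 and 53.9 CPM, and SCARNA6 at 16.1 and 14.2 CPM. On the log2 scale (0.5 CPM added) the ratio was 1.08 for SNORA53 and 0.91 for SNORA74A, against a range of -0.29 to 0.25 between the 5th and 95th percentiles of 11791 genes at 5 CPM or more. SCARNA21 (-0.03), SCARNA7 (0.12) and SCARNA9 (-0.13) did not differ in that pair. The chi-square of counts per member was 17.8 in PVA replicate 2 and 2.05 to 3.97 in the other 5 pairs, while over all genes that replicate was at 7.72 within a range of 5.86 to 14.5. Without library 2, 6 members were called in the F test, again without the share of all genes beside it. Replicate 2 against 1 was then 1.35 for SNORA53, 1.59 for SNORA74A and 0.99 for SNORA23. In 3 of the 7 risen members (SCARNA6, SNORA74A and SNORA74B) all 4 replicate 2 libraries lay above the other 8, and in the rest 3 of 4 did.

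Between technical libraries the 5 members at 5 CPM or more had larger ratios than most genes at 5 CPM or more, except SCARNA6. Those genes were not matched to the members by level. SNORA74A, at a mean of 5.72 CPM, and SCARNA21, at 8.21, lie near that limit, where counting noise widens the ratio. The median absolute log2 ratio over the 6 pairs was 0.29 for SNORA53, 0.25 for SCARNA5, 0.22 for SNORA74A and 0.19 for SCARNA21, which are the 96.6th, 94.4th, 91.7th and 86.5th percentiles of those genes. It was 0.11 for SCARNA6, at the 55.1st percentile. These are descriptions, since a pair of libraries gives no replicate of its own difference.

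**Figure D3:**
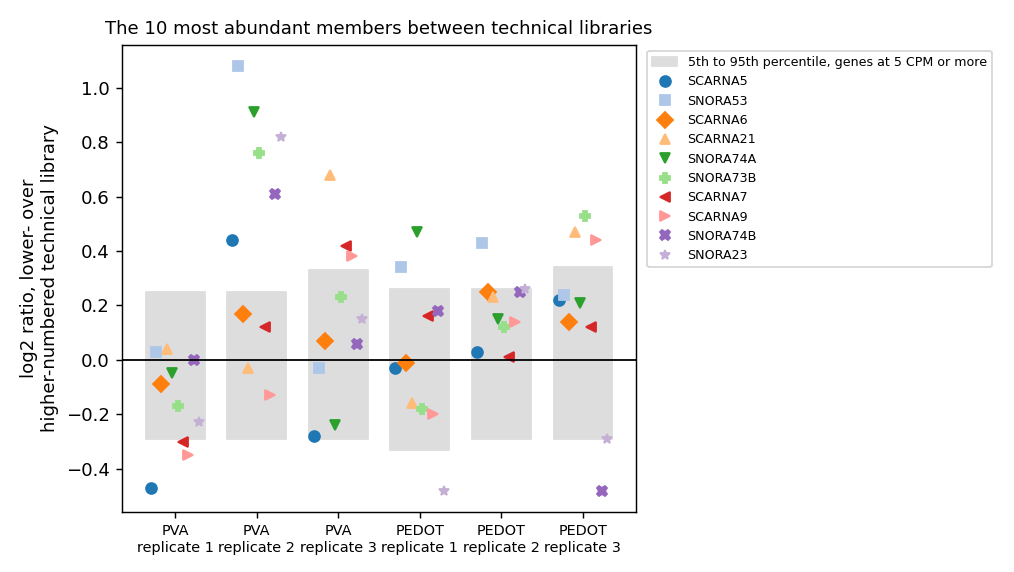
log2 ratio of the lower- over the higher-numbered technical library for the 10 most abundant members in each of the 6 biological replicates; grey bands give the 5th to 95th percentile of all genes at 5 CPM or more, a level that the last 5 members in the key do not reach. In PVA replicate 2, SNORA53 (1.08) and SNORA74A (0.91) lie far above the band, and SCARNA21, SCARNA7 and SCARNA9 lie inside it.

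The hosts of the 8 members called between replicates 2 and 1 changed less than the members, or in the other direction. ATG16L1, the host of SCARNA5 and SCARNA6, changed by 0.11 (log2, replicate 2 minus 1, adjusted p = 0.404). SNHG4, the host of SNORA74A, changed by 0.20 (adjusted p = 0.334) and MATR3 by -0.01 (adjusted p = 0.932). SNHG3, a noncoding host that carries SNORA73B, was lower in replicate 2 (-0.42, adjusted p = 0.00611), in the direction opposite to its snoRNA. SLC25A3 was higher by 0.39 (adjusted p = 0.00542) and ATP6V0E1 by 0.23 (adjusted p = 0.0466), both less than SNORA53 and SNORA74B. IPO7 gave -0.15 (adjusted p = 0.216) and CHD3 -0.07 (adjusted p = 0.560). Across 34 members with a host, Pearson's r between the members' and hosts' changes was 0.10, and 18 had the same sign, a description over members that share libraries and in part a host.

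Per kilobase, 11 of the 34 members were above their host's exons and 23 below. The ratio of member to host ran from 0.0445 for SNORA66 in RPL5 to 40.4 for SCARNA5 in ATG16L1, with a median of 0.355. SCARNA6 was 9.30 times as high as its host and SCARNA21 3.95 times. SNORA74A was 9.31 times as high as SNHG4, the host used in these counts, and 1.18 times as high as MATR3. SCARNA7 (0.639), SNORA74B (0.263) and SNORA23 (0.208) were below theirs.

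**Figure D4:**
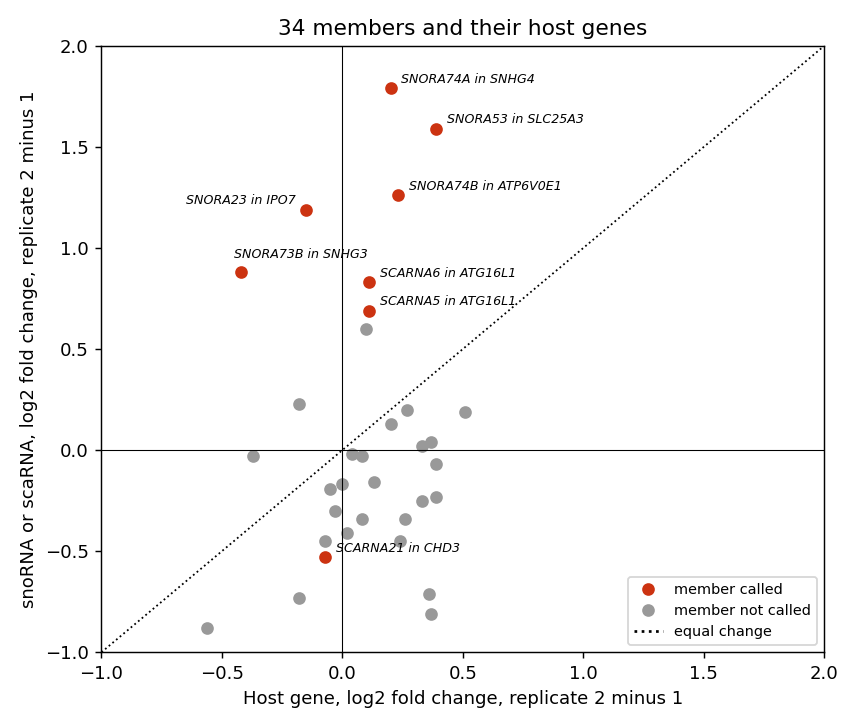
Change of each member against that of its host gene, both as log2 fold change of replicate 2 minus 1, for the 34 members inside a same-strand gene; red points are members with an adjusted p under 0.05 and the dotted line marks equal change. The 7 members called higher lie above the line, with hosts between -0.42 and 0.39.

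Transcripts of the H/ACA particle's protein genes were mostly not called. Of DKC1, NHP2, NOP10, GAR1, NAF1 and SHQ1, only NOP10, a core subunit, was called between replicates 2 and 1. NOP10 was at 29.9, 38.4 and 34.2 CPM on PVA, and on PEDOT at 30.6, 38.2 and 30.3 CPM, a log2 fold change of 0.34 (SE 0.09, adjusted p = 0.0105). DKC1, the pseudouridine synthase, was at 10.5 to 13.6 CPM in the 6 sums, and GAR1 at 3.45 to 4.81. None of 9 Cajal body and scaRNA genes was called. Among 10 genes of snoRNA 3′ end formation EXOSC2 alone was called (0.33, adjusted p = 0.0323). Of 12 standalone pseudouridine synthases TRUB2 was higher (0.27) and PUS7L lower (-0.57), and of 20 RNA polymerase I and pre-rRNA processing genes 2 were higher and 2 lower. Beside these stand 13.3% of all genes called higher and 15.7% lower.

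Some short RNAs outside the class also differed by replicate number. Of 19 C/D snoRNAs with 100 or more counts, 5 were higher in replicate 2 than in 1, none was lower and 14 were not called, beside 13.3% of all genes higher and 15.7% lower. In log2, SNORD3A, the U3 snoRNA of early pre-rRNA cleavage, was higher by 1.48 (SE 0.16), SNORD3C by 1.21, SNORD15B by 0.87, SNORD13 by 0.86 and SNORD17 by 0.82. Against replicate 3, 3 were higher and 2 lower, beside 7.57% and 11.9% of all genes. Of 9 tested genes in a list of other short RNAs, 6 were higher than in replicate 1, none was lower and 3 were not called. The 6 were RN7SL1, the signal recognition particle RNA (1.22, SE 0.10), RMRP, the RNA of RNase MRP (0.88, SE 0.11), the spliceosomal RNAs RNU4-2 (1.47), RNU4-1 (1.86) and RNU5A-1 (1.52), and RNY1, a Y RNA (2.09). RN7SL1 was at 3601, 8558 and 5546 CPM on PVA, and on PEDOT at 4409, 10027 and 6754 CPM, so its replicate 2 sums were the highest on each scaffold, as in SNORA53. RNY1 has 113 annotated bases and SNORD13 104, so the called RNAs of these lists include short ones. Between libraries 2 and 3 of PVA replicate 2 the log2 ratio was 0.52 for RN7SL1, 0.48 for RMRP, 0.75 for RNU4-2 and 0.08 for RNY1. Over the other 5 pairs it ran from -0.37 to 0.92 for RN7SL1, highest in PVA replicate 3, and for SNORD3A from -1.42 in PVA replicate 1 to 0.74 in PVA replicate 3, so gaps between libraries of these RNAs were not limited to PVA replicate 2. Whether a shared technical step moves these RNAs and the members was not tested.

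Markers of several cell types moved with the replicate number as well. The 8 fibroblast markers (DCN, COL1A1 and others) summed to 817 and 842 CPM in replicate 2 and to 3222 to 6752 CPM in the other 4 sums, with 6 lower and POSTN higher against replicate 1. All 8 smooth muscle and pericyte markers were lower, at summed levels of 1198 and 1494 CPM against 1648 to 2516. Of 10 cardiomyocyte markers 7 were higher and MYH7 and MYL2 lower. Between replicates 2 and 1, 0 of 8 markers of dividing cells were called, and 1 of 7 tested endothelial markers was lower. Over all genes, 13.3% were called higher and 15.7% lower. None of these lists had a gene at 0, and the part of cell makeup in the members' differences was not tested. In bulk RNA, fewer cells of a type and less RNA per cell cannot be told apart.

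Scaffold was the comparison the series set up, between conductive and non-conductive fibres, and no member was called in it. In edgeR without a block, 0 of 35 members and 0 of 21298 genes (0%) had an adjusted p under 0.05. There 2 members (5.71%) had an unadjusted p under 0.05, beside 190 genes (0.892%). DESeq2 also called 0 members. With the replicate number as a block, 0 members were called beside 57 genes (0.268%). In that fit 2 members (5.71%) had an unadjusted p under 0.05, beside 1771 genes (8.32%). The median log2 fold change of the members, PEDOT minus PVA, was 0.10 without and 0.08 with the block, beside -0.01 and -0.00 over all genes, with a range of -0.76 to 0.66 with the block. The SE with the block was 0.10 to 0.50 (median 0.31). Changes well above their SE stayed uncalled, as 0.64 (SE 0.23) in SNORA12 and -0.76 (SE 0.37) in SCARNA4. The lack of a call therefore does not exclude changes of such size in most members.

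SNORA12, an orphan H/ACA snoRNA, had the smallest p between scaffolds without a block, and SCARNA5 had it with the block. SNORA12 was at 0.910, 0.914 and 0.824 CPM on PVA, and on PEDOT at 1.30, 1.36 and 1.47 CPM, and the groups did not overlap. Its mean was 0.882 ± 0.0508 CPM on PVA and 1.38 ± 0.0843 on PEDOT (SD, n = 3), and the log2 fold change with the block was 0.64 (SE 0.23, edgeR adjusted p = 0.437). Its host CWF19L1 gave 0.00. SCARNA4, an H/ACA guide for U2 snRNA, was at 0.520, 0.413 and 0.573 CPM on PVA, and on PEDOT at 0.294, 0.366 and 0.234 CPM, also without overlap (-0.76, SE 0.37, adjusted p = 0.623). The third such member was SNORA66, at 0.233 to 0.326 CPM on PVA and 0.349 to 0.452 CPM on PEDOT (0.45, SE 0.37, adjusted p = 0.838). Groups that do not overlap occurred in 3 of 35 members (8.57%) beside 979 of 21298 genes (4.60%).

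SCARNA5 had the smallest p with the block (log2 0.27, SE 0.10, edgeR adjusted p = 0.432). Its mean was 54.7 ± 11.2 CPM on PVA and 66.8 ± 21.2 on PEDOT (SD, n = 3), and the groups overlapped. The pairs of equal number differed by 0.35, 0.54 and -0.09 (log2), and without pair 3 it was the 1 member called (log2 0.45, adjusted p = 0.00203). Without PEDOT replicate 2 and without a block, its difference was -0.01. SNORA53 gave 0.27, 0.48 and -0.18 in the 3 pairs (0.20 with the block, SE 0.10, adjusted p = 0.679) and turned to -0.38 without PEDOT replicate 2 and -0.06 without PVA replicate 1, both without a block. SCARNA3, at 0.239 to 0.390 CPM on PVA and 0.367 to 0.689 CPM on PEDOT, gave 0.66 (SE 0.39, adjusted p = 0.728).

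The scaffold difference depended on the pair. In pair 2, 28 of 35 members were higher on PEDOT with a median of 0.43, beside 45.4% of all genes with a median of -0.02. In pair 1, 13 members were higher with a median of -0.14, and in pair 3, 14 with a median of -0.09, beside 49.7% and 51.1% of genes. The difference between the pairs was not tested.

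**Figure D5:**
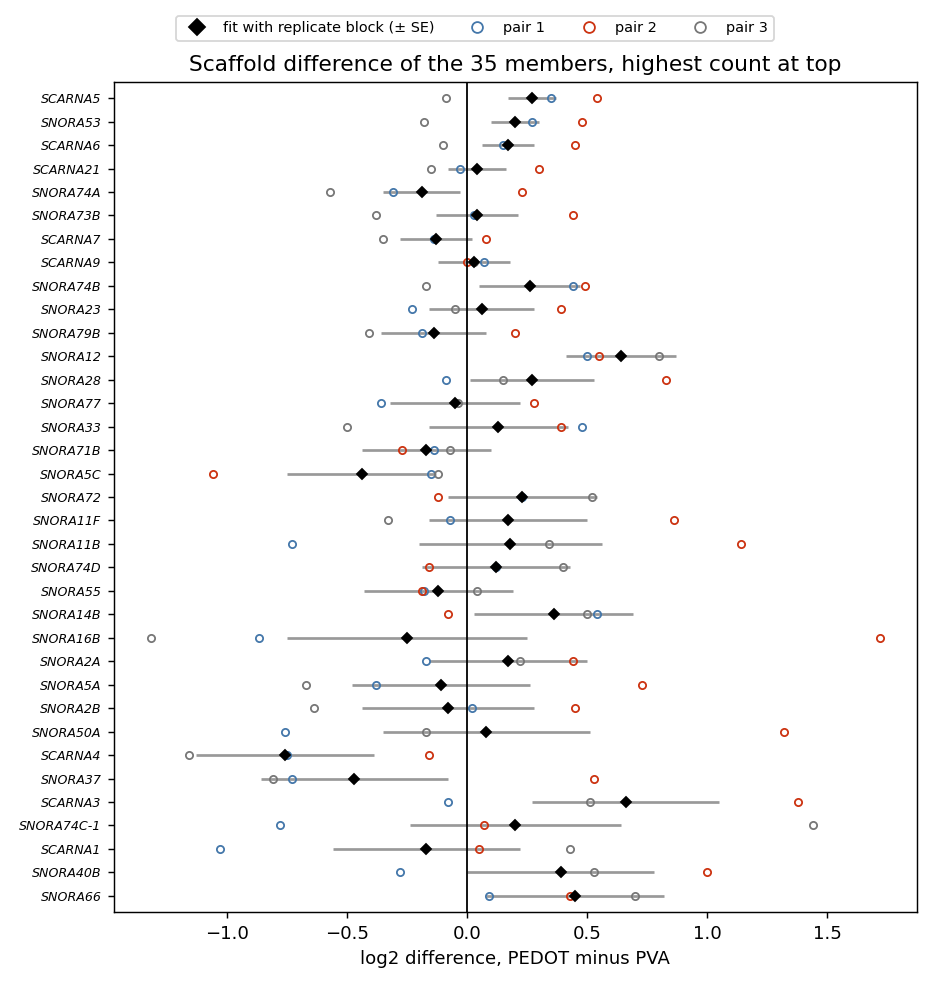
Difference between scaffolds, PEDOT minus PVA on the log2 scale, for the 35 members in order of total count; black diamonds give the fit with the replicate block ± SE and open circles the 3 pairs of equal replicate number. Pair 2 lies to the right of pairs 1 and 3 in most of the abundant members, and SNORA12 is above 0 in all 3 pairs (0.50, 0.55 and 0.80).

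Together the members took 113.4, 159.3 and 134.4 CPM of the unscaled library total on PVA and 122.3, 221.5 and 123.6 on PEDOT. The means were 135.7 ± 23.0 and 155.8 ± 56.9 (SD, n = 3), a difference of 20.1 that was smaller than the SD on PEDOT (two-sided exact permutation test over 20 assignments, p = 0.8, where 0.1 is the smallest p possible). Without PEDOT replicate 2 the difference was -12.7. Within pairs the difference was 8.95, 62.2 and -10.7 CPM. Without SCARNA5, SCARNA6, SCARNA7 and SCARNA9, a choice made after seeing the data, the means were 61.2 ± 12 and 67.5 ± 28.8 (p = 0.900, exact permutation test).

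The genes outside the class whose levels over the 6 sums were closest to the members' mean standardised profile were PLAC8L1 (Pearson's r 0.994), AC051619.4 (0.990) and ZNF37BP (0.987). That profile gives each of the 35 members equal weight, was highest in PEDOT replicate 2 (0.59 SD units) and in PVA replicate 1 (0.27), and so is not the pattern of the abundant members. ZNF37BP was at 14.8, 12.3 and 12.5 CPM on PVA, and on PEDOT at 14.1, 16 and 12.2 CPM. PLAC8L1 was at only 0.362 to 0.862 CPM. These 3 genes have the highest r of all other tested genes over only 6 sums, so a high r comes with the choice.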

How the data were processed

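RNA sequencing of ribodepleted total RNA from cardiomyocytes on PVA and PEDOT scaffolds gave 12 libraries. The authors deposited unnormalized counts of read pairs for each gene name, made with featureCounts 2.0.1, paired-end and reversely stranded, on GENCODE 33, per the file headers; the exon length per gene stands beside them. That command sets no option to count reads that map to several places or overlap several genes. The submitters' processing notes name STAR and hg38, and the aligner's version is not given in the sources used here. Libraries held 19117192 to 30954829 counts.

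The members, gene lists and tests were chosen with earlier results of these data known. Technical libraries were summed to 6 sums. edgeR 4.0.16 (R 4.3.3; filterByExpr, minimum count 10 and total 15, TMM, quasi-likelihood, two-sided, Benjamini-Hochberg over 21298 genes, threshold 0.05) tested the scaffold as the only term, the scaffold with a replicate block, and the replicate number with the scaffold as a term. The standard error was taken as the fold change on the log2 scale over the root of F. log2 CPM used a prior count of 2. The share of counts was compared by an exact permutation test. The scripts were tested on simulated counts with 200 changed genes. Alternatives were DESeq2 1.42.0, other scalings and filters, single technical libraries, and each sum left out. A check of the pairing, by correlating across genes how far sums of equal number lay from their scaffold's mean, gave 0.678, 0.703 and 0.503. Sums of unequal number gave -0.609 to -0.00497, and equal numbers were therefore treated as pairs. It comes from the values, since no label says what a number shares. Over the 35 members the correlations for equal numbers were 0.531, 0.358 and -0.386, so the members did not pair at number 3.

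Named members are the 12 of highest mean CPM, the 5 of smallest p between scaffolds, the 8 of smallest and 3 of largest p between replicate numbers, scaRNAs at 1 CPM or more, members with the largest and smallest differences between technical libraries, the rows beside the count limit, hosts, particle genes and the 3 most similar genes. SNORA12's neighbours without overlap, SCARNA1, SNORA37, SNORA74D and the C/D and other short RNAs named were chosen after their values were seen. Sequences of 35 of 35 members were matched by coordinates to GENCODE 29 transcripts, and 34 were read; one of these sequences is not reported here.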

Additional observations from a re-analysis of the deposited data

Results flagged for a closer look

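Each of the 13 members at 1 CPM or more was checked in the 6 libraries of each scaffold for a highest or lowest value far from the rest (a gap beyond Dixon's 95% critical value for 6 values), which is 26 groups, of which chance flags about 1 in 20. The technical libraries of a replicate are not independent. In PVA, library 2 of replicate 2 was far above the other 5 for SNORA53 (53.8 CPM), SNORA74A (12.8 CPM) and SNORA23 (2.72 CPM). In PEDOT, library 1 of replicate 2 was far above the others for SNORA79B (1.84 CPM).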

How the results depend on the processing

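The replicate block changed no call of a member between scaffolds (0 with and without it) and left the median difference at 0.08. With the replicate block and without replicate 3, 1 member was called. Leaving out one sum each, the scaffold fit called 0 members throughout, with a median of -0.11 to 0.17, and SCARNA5 ran from -0.01 to 0.43 and SNORA53 from -0.38 to 0.62. The difference in the share of counts ran from -12.7 to 36.9 CPM without one sum, and sign flips over the 3 pairs, as a replicate block, gave p = 0.750 (exact). Between replicate numbers, the F test called 5 to 9 members without one sum and 5 on higher-numbered technical libraries only. Members higher in replicate 2 than in 1 numbered 5 to 7 without one sum and 4 with the higher-numbered libraries alone. Those lower numbered 0 to 3 without one sum, 0 with the lower-numbered libraries alone, and 2 without library 1 of PEDOT replicate 2, a setting chosen after seeing the data, as were all that leave out one library. SCARNA7 ran from -0.32 to 0.02. Other scalings, filters, DESeq2 and a member minimum of 500 counts kept counts within 1.5 times. Every member has 1 annotated place, so limiting the fit to such members repeats it and does not check reads shared between copies. The cause was not tested, and the share of all genes called in each alternative run is not given. Counts limit the 22 members under 1 CPM.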
